A study of Mus musculus with 48 samples.

Results

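Macrophages that live in bone marrow engulf dying cells and the nuclei that red cell precursors expel, take up haemoglobin and recycle its iron, and hold blood-forming cells in their niche. They are long-lived and are known by surface receptors for this work and by the transcription factors that maintain the cell type. 9 genes of this kind, chosen by name with earlier results of these data known, were followed in whole tibia: Spic, Maf, Mrc1, Cd163, Timd4, Siglec1, Adgre1, Cd5l and C1qa. All 9 were among the 29801 genes of the table, each under 1 identifier, and all 9 reached a mean of 1 FPKM (fragments mapped to a gene, scaled by its transcript length and by the fragments of the library), the minimum for the 13590 genes that were tested.

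The mice were male C57BL/6J, 3 in each of 4 groups. Young AL and aged AL mice ate standard chow ad libitum. Young CR and aged CR mice were calorie restricted for 8 weeks on a micronutrient-enriched form of that chow, with food lowered by 10% in week 1, 20% in week 2 and 40% from week 3, so that chow and amount changed together. By the series' description, young mice were 10 weeks and aged mice 15 to 18 months old. These are ages when the diets began, and all mice were 8 weeks older when the tibia was taken. All mice were caged singly. The tibia was freed of muscle, frozen and ground whole, so that marrow, bone, fat and any muscle left on it share each value. The summed level of 9 skeletal muscle genes ran from 145 FPKM in young CR mouse 3 to 1080 FPKM in aged AL mouse 14. In such bulk RNA, fewer cells of a type and less RNA per cell cannot be told apart, and no cell was sorted. Mice carry their numbers from the labels: 9, 10 and 11 young AL, 1, 2 and 3 young CR, 13, 14 and 15 aged AL, and 5, 6 and 7 aged CR.

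The order of the genes by level, per length, was C1qa, Cd5l, Spic, Mrc1, Adgre1, Maf, Cd163, Timd4 and Siglec1. The mean over the 12 mice ran from 156 FPKM for C1qa, more than 96.9% of the genes tested, to 2.97 FPKM for Siglec1, more than 22.1% of them. C1qa was above Cd5l, Cd5l above Spic, Adgre1 above Maf and Timd4 above Siglec1 in 12 of 12 mice. The other neighbours in this order were closer: Mrc1 was above Adgre1 in 11 of 12 mice, and Spic above Mrc1, Maf above Cd163 and Cd163 above Timd4 in 9 of 12 each. No member was listed at 0 in any mouse. The members lie on 8 chromosomes (GENCODE M21, GRCm38, the assembly also called mm10). Only Mrc1 and Siglec1 share one, chromosome 2, at 14229392 to 14332057 and 131069220 to 131086765.

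**Figure D1:**
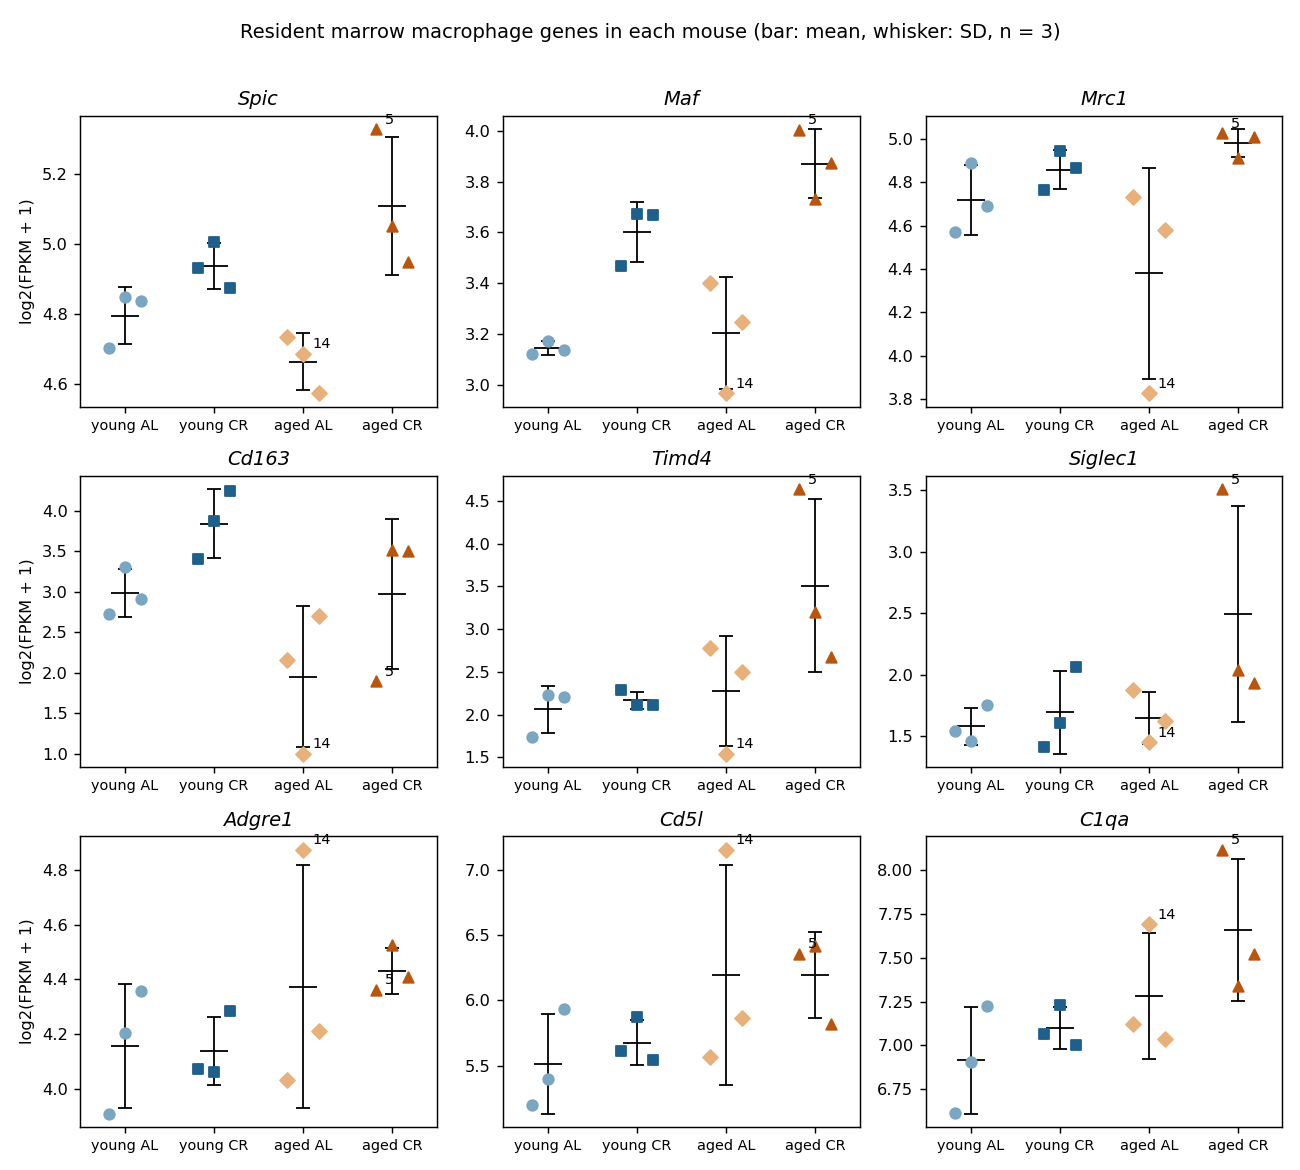
Level of each gene in each mouse as log2(FPKM + 1), 1 panel per gene with its own axis, points for mice, bars for group means and whiskers for SD (n = 3). Mice 5 and 14 are numbered: mouse 5 tops the Timd4 and Siglec1 panels at 23.8 and 10.4 FPKM, and mouse 14 tops the Cd5l panel at 141 FPKM.

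2 mice stood apart from their groups in these genes. Aged CR mouse 5 had the highest level of the 12 mice in 6 members (Spic, Maf, Mrc1, Timd4, Siglec1 and C1qa) and the lowest Cd163 of its group. The lectin Cd209b, whose receptor binds microbial sugars on some lymphoid tissue macrophages, was at 149 FPKM in mouse 5 and at most 0.250 FPKM in the other 11. Marco, a scavenger receptor, was at 310 FPKM against at most 20.5 FPKM elsewhere. Folr2, a folate receptor of resident macrophages, was at 45.4 against at most 4.87 FPKM. Of the 30 genes in which mouse 5 lay farthest above the next mouse, 6 encode variable segments of antibodies, Igkv3-4 the first of them at 1549 FPKM against at most 96.9 FPKM elsewhere. The summed level of 10 B cell markers was 148 FPKM in mouse 5, below the 160.5 and 173 FPKM of mice 6 and 7. Their mean deviation, each gene taken from its own 12-mouse mean as log2, had the other order. It was -0.34 in mouse 5 against -0.81 and -0.71 in mice 6 and 7. Whether the sample of mouse 5 held tissue from outside the tibia was not tested. Aged AL mouse 14 had the highest Cd5l and Adgre1 of the 12 mice and the lowest Mrc1, Maf, Cd163 and Timd4. In that mouse Fcgr4, an Fc receptor also found on patrolling monocytes, was at 346 FPKM against at most 27.9 FPKM elsewhere, and the integrin gene Itgax at 27.9 against at most 4.48 FPKM. These 6 genes were picked after their values were seen, from those farthest above the next mouse. Part of what follows rests on these mice, and values without them are given where they matter. The 2 mice were singled out by their values in these same genes, so a test without them is a description.

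Promoter sequence was at hand for 5 of the 9 genes (RefSeq, GRCm38.p6, 250 bases before to 50 after the start), and 4 are shown because they hold the letters searched for the regulators among the members. Capitals mark GAGGAA, the core of sites bound by the Ets factors PU.1 and Spi-C, and TGCTGA, an arm of the palindromic Maf recognition element, on either strand. The windows are chr10:88682974-88683273 on the minus strand for Spic, and on the plus strand chr2:14229164-14229463 for Mrc1, chr11:46810549-46810848 for Timd4 and chr3:87357631-87357930 for Cd5l. The Spic window lies inside the gene in GENCODE M21, which spans 88674772 to 88685015 with 4 transcripts. A start nearer the outer end of that gene was not searched.
Spic: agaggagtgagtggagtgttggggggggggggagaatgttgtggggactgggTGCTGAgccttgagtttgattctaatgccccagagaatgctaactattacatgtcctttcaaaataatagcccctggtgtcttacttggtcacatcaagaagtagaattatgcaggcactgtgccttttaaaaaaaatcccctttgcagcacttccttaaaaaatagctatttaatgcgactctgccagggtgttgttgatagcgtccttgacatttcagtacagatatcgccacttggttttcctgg
Mrc1: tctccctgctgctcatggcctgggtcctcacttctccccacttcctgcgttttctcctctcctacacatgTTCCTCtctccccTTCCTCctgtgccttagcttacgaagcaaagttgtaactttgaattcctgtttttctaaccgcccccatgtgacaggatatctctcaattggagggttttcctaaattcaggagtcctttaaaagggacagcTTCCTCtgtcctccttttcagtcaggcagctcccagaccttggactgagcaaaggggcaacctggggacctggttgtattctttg
Timd4: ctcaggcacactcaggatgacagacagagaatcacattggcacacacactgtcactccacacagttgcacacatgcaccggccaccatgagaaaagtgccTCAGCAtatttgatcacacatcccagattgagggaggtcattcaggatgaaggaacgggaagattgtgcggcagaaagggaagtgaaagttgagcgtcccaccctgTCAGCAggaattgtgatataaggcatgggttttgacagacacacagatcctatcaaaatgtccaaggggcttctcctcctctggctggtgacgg
Cd5l: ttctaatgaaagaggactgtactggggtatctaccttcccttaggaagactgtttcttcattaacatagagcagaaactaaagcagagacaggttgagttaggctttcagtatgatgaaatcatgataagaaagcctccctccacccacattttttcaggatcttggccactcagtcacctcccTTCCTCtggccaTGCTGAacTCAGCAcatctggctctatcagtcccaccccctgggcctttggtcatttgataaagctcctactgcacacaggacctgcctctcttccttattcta
Mrc1 had GAGGAA 3 times and Cd5l once, while 28.3% of 32851 promoter windows of this length hold it. TGCTGA stood 2 times in Timd4, 2 times in Cd5l and once in Spic, against 19.5% of windows with at least 1. The 2 copies in Cd5l face each other, starting 54 and 46 bases before the start site. Neither was found in the window of Cd163, which had TGTTCT, an arm of the glucocorticoid response element, 2 times, against 19.0% of windows with at least 1. AGGTCA, an arm of nuclear receptor elements, stood once in Timd4 (16.3% of windows). TATAAA, the TATA box, was in none of the 5 windows (13.6% of all). The motifs do not overlap one another, and matches of so few letters are a description of the sequence.

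The first question of the design was what CR did to these genes. Maf rose with CR over both ages, and it was the only member that passed. Maf encodes c-MAF, a leucine zipper factor that maintains resident macrophage identity and is also made by some T cells and by cartilage. Its level was 7.71, 8.03 and 7.81 FPKM in young AL mice 9, 10 and 11, and 10.1, 11.8 and 11.7 FPKM in young CR mice 1, 2 and 3. In aged AL mice 13, 14 and 15 it was 9.58, 6.83 and 8.495 FPKM, and in aged CR mice 5, 6 and 7 it was 15.0, 12.3 and 13.7 FPKM. At each age every CR mouse was above every AL mouse. The difference of CR from AL over both ages was 0.56 ± 0.08 on the log2(FPKM + 1) scale (SE; limma, adjusted p = 0.0299 over all genes tested). That is a fold of 1.47 in FPKM + 1, not in FPKM. By p, Maf stood at rank 11 of 13590. 1 of 9 members was called, where 0.258% of all genes tested were called and 0.191% were called higher.

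The Maf difference was 0.46 ± 0.11 in young mice (adjusted p = 0.195, limma) and 0.66 ± 0.11 in aged mice (adjusted p = 0.198, limma). Without mice 5 and 14 the Maf difference was 0.48 in aged mice and 0.47 over both ages (limma, adjusted p = 0.00807 over both ages). Mice 5 and 14 hold the highest and the lowest Maf and were left out after that was seen, so this pass is a description. Leaving out these mice raised the calls over the whole table as well, to 3.25% of all genes tested. The call was lost when 1 of young CR mice 2 and 3, aged CR mouse 7 or young AL mice 9, 10 and 11 was left out, and when genes of low level were kept in the table (adjusted p = 0.0681, limma), while the difference over both ages stayed between 0.45 and 0.61 in every alternative. Over all alternatives its adjusted p ran from 0.00476 to 0.105 (limma).

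Spic encodes Spi-C, an Ets factor required for the macrophages that recycle red cells and induced by haem. It was at 25.03, 27.8 and 27.6 FPKM in young AL mice and at 29.5, 31.1 and 28.3 FPKM in young CR mice. It was at 25.6, 24.7 and 22.8 FPKM in aged AL mice and at 39.2, 32.1 and 29.9 FPKM in aged CR mice. As with Maf, no CR mouse overlapped an AL mouse of its age. The spread was small, with a standard deviation within groups of 0.12 on the log2 scale, less than the median of 0.15 over all genes tested. The difference over both ages was 0.29 ± 0.07 and did not pass (limma, adjusted p = 0.0977). It was 0.14 ± 0.10 in young and 0.44 ± 0.10 in aged mice. Without mouse 5, which had the highest Spic, it was 0.33 in aged mice and 0.24 over both ages. With a quality weight for each mouse the difference over both ages passed (limma, adjusted p = 0.0332, difference 0.23), in a fit that called 6.79% of all genes. Maf and Spic were thus the 2 of 9 members in which CR lay above AL without overlap at both ages, against 1.53% of all genes tested.

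**Figure D2:**
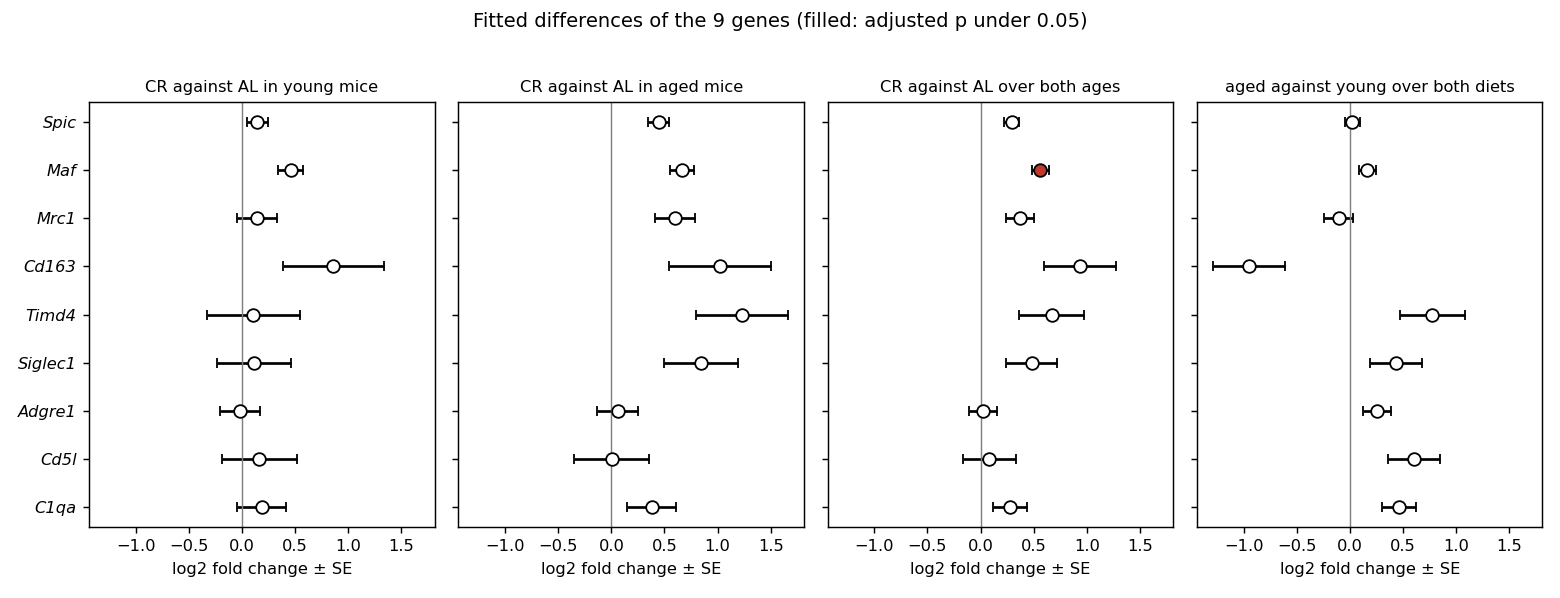
Fitted difference of each gene on the log2(FPKM + 1) scale with its SE in 4 comparisons, filled where the adjusted p is under 0.05. Maf over both ages, at 0.56, is the only filled point. Cd163 is the only gene far to the left for age, at -0.95, although it lies to the right for CR, at 0.94.

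2 receptors for haemoglobin and sugars came next. Mrc1 encodes the mannose receptor CD206, which macrophages and sinusoidal endothelium use to clear glycoproteins. It was at 22.8, 28.6 and 24.8 FPKM in young AL and at 26.2, 29.7 and 28.2 FPKM in young CR mice, which overlap. It was at 25.5, 13.2 and 22.9 FPKM in aged AL and at 31.6, 29.0 and 31.1 FPKM in aged CR mice, which do not. The low value is that of mouse 14, and the difference in aged mice of 0.60 ± 0.19 was 0.32 without it. Over both ages it was 0.37 ± 0.13 (limma, adjusted p = 0.257). Stab2, a receptor of sinusoidal endothelium, differed by 0.32 ± 0.11 (limma, adjusted p = 0.218), and the summed level of the 10 endothelial markers ran from 67.4 to 71.1 FPKM in young AL, 76.9 to 80.1 in young CR, 71.6 to 83.5 in aged AL and 77.7 to 85.5 in aged CR mice. No endothelial marker was called for diet (0.258% of all genes), 9 of 10 lay above 0 (50.8% of all genes), and their part in the Mrc1 values was not tested.

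Cd163 encodes the receptor that takes up haemoglobin bound to haptoglobin. It was at 5.63, 8.89 and 6.54 FPKM in young AL and at 9.62, 13.6 and 18.0 FPKM in young CR mice. It was at 3.45, 1.001 and 5.51 FPKM in aged AL and at 2.73, 10.4 and 10.3 FPKM in aged CR mice. All young CR mice were above all young AL mice, while aged CR mouse 5 lay below 2 of the aged AL mice. The difference over both ages was 0.94 ± 0.34 and that for age -0.95 ± 0.34 (limma, adjusted p = 0.257 and 0.203). Without mice 5 and 14 the diet difference was 0.97 and passed (limma, adjusted p = 0.0236, with 3.25% of all genes called), and the age difference fell to -0.45 (limma, adjusted p = 0.258). Mouse 14 had the lowest Cd163 of all mice and mouse 5 the lowest of its group. That pass thus rests on values by which the mice were chosen. Cd163 varied most of the members, with 18.0-fold between its lowest mouse and its highest.

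Timd4 and Siglec1 passed at neither age, and their highest levels were those of aged CR mouse 5. Timd4 encodes TIM-4, a receptor for phosphatidylserine on dying cells that marks embryonically seeded resident macrophages. It was at 2.35, 3.69 and 3.63 FPKM in young AL, 3.88, 3.31 and 3.33 in young CR, 5.86, 1.92 and 4.67 in aged AL and 23.8, 8.20 and 5.41 FPKM in aged CR mice. The groups of each age overlapped between diets, and the difference was 0.11 ± 0.43 in young and 1.23 ± 0.43 in aged mice (limma, adjusted p = 0.955 and 0.545). Without mouse 5 the aged difference was 0.67, and without mice 5 and 14 it was 0.30 (limma, adjusted p = 0.679).

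Siglec1 encodes sialoadhesin (CD169), a sialic acid receptor of the macrophages that hold stem cells and erythroblasts in the marrow, and a gene induced by type I interferon. It was at 1.90, 1.75 and 2.36 FPKM in young AL, 1.66, 2.04 and 3.19 in young CR, 2.67, 1.74 and 2.07 in aged AL and 10.4, 3.11 and 2.83 FPKM in aged CR mice. The aged CR mice were all above the aged AL mice, mouse 5 by far the most. The aged difference of 0.84 ± 0.35 (limma, adjusted p = 0.611) was 0.34 without mouse 5 and 0.24 without mice 5 and 14. The mean deviation of 19 interferon-induced genes, each taken from its own 12-mouse mean as log2, was 1.30 in mouse 5, against -0.62 and -0.49 in aged CR mice 6 and 7 and 0.06 to 0.36 in aged AL mice. That list lay below 0 for diet in 19 of 19 genes, where 50.8% of all genes lay above 0. None of the list was called (0.258% of all genes), its median was -0.46, and its part in Siglec1 was not tested.

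Adgre1, Cd5l and C1qa did not separate the diets at either age. Adgre1 encodes F4/80, the adhesion receptor by which mouse macrophages are commonly stained. It was at 14.03, 17.4 and 19.5 FPKM in young AL, 15.8, 15.7 and 18.5 in young CR, 15.4, 28.3 and 17.5 in aged AL and 19.6, 22.0 and 20.2 FPKM in aged CR mice. The groups overlapped between diets at both ages. The difference over both ages was 0.02 ± 0.13 (limma, adjusted p = 0.962), and 0.15 without mouse 14. Cd5l encodes a secreted protein that keeps macrophages alive and is induced by the liver X receptors. It was at 35.8, 41.2 and 60.1 FPKM in young AL, 47.8, 57.4 and 45.7 in young CR, 46.3, 141 and 57.1 in aged AL and 80.9, 84.2 and 55.4 FPKM in aged CR mice. Its diet difference of 0.08 ± 0.25 was likewise smaller than its error (limma, adjusted p = 0.911), and without mouse 14 it was 0.32. C1qa encodes the A chain of C1q, which starts the classical complement pathway and coats dying cells. It was at 97.03, 119 and 149 FPKM in young AL, 133, 149 and 127 in young CR, 138, 206 and 130.1 in aged AL and 277, 161 and 183 FPKM in aged CR mice. The diet difference was 0.28 ± 0.16 (limma, adjusted p = 0.461), 0.17 without mouse 5 and 0.38 without mouse 14. In aged mice it was 0.38, but 0.15 without mouse 5 and 0.58 without mouse 14.

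As a list, the members had a median difference of 0.37 for CR over both ages, beside 0.003 over all genes tested, and 9 of 9 lay above 0, where 50.8% of all genes did. The list was chosen with earlier results of these data known, so its medians and counts are a description. The median was 0.14 in young mice, with 8 of 9 above 0 (52.2% of all genes), and 0.60 in aged mice, with 9 of 9 above 0 (48.6% of all genes). Without mouse 5 the median was 0.34 in aged mice, with 8 of 9 above 0 (49.5% of all genes) and Cd5l at -0.078, and 0.24 over both ages. With 1 mouse left out, 7 to 9 members lay above 0 in aged mice and 7 to 9 over both ages. 0 of 9 members were called in young mice, where 0.0662% of all genes were called, and 0 of 9 in aged mice, where 0.00% were called. At an unadjusted p under 0.05, limma placed 1 member higher in young mice (5.79% of all genes), 5 in aged mice (4.50%) and 4 over both ages (7.42%), and none lower (5.24%, 3.22% and 6.45% of all genes). The 5 in aged mice were Timd4, Mrc1, Maf, Spic and Siglec1. Without mice 5 and 14 their aged differences of 1.23, 0.60, 0.66, 0.44 and 0.84 were 0.30, 0.30, 0.48, 0.35 and 0.24. Members also varied together from mouse to mouse, so these counts are a description. CR mice lay above AL mice without overlap in 3 members in young mice, Maf, Cd163 and Spic (10.1% of all genes), and in 4 in aged mice, Maf, Spic, Mrc1 and Siglec1 (5.70%).

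Whether CR acted differently at the 2 ages was tested as the CR difference in aged minus that in young mice. 0 of 9 members passed, where 0.00% of all genes were called, and limma placed 0 members under an unadjusted p of 0.05, beside 2.37% of all genes higher and 1.86% lower. The values ran from -0.16 ± 0.50 for Cd5l to 1.12 ± 0.61 for Timd4, with Spic at 0.30 ± 0.14 (limma, adjusted p = 0.999 for each). The Timd4 value was 0.19 without mice 5 and 14. The larger differences in aged mice given above are thus not shown to differ from those in young mice.

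The second question was age. No member was called between aged and young mice over both diets, where 0.758% of all genes were called. The median of the 9 was 0.25, beside -0.02 over all genes tested, and 7 of 9 lay above 0, where 44.4% of all genes did. At an unadjusted p under 0.05, limma placed Timd4, Cd5l and C1qa higher (6.80% of all genes) and Cd163 lower (9.76%). Timd4 differed by 0.78 ± 0.31, Cd5l by 0.60 ± 0.25 and C1qa by 0.46 ± 0.16 (limma, adjusted p = 0.239, 0.257 and 0.192). Without mice 5 and 14 the age difference of Timd4 was 0.68 and passed (limma, adjusted p = 0.0454, with 1.61% of all genes called), while those of Cd5l and C1qa were 0.32 and 0.25. Mice 5 and 14 hold the highest and the lowest Timd4 and were left out after that was seen, so this pass is a description. Maf, at 0.16 ± 0.08, passed for age only with a quality weight for each mouse (limma, adjusted p = 0.0270, difference 0.26, with 13.2% of all genes called). In CR mice the aged lay above the young without overlap in 4 members, Timd4, Maf, Adgre1 and C1qa (7.90% of all genes). In AL mice no member did so (5.59%), and the aged lay below the young in Cd163 alone (7.65%). No member separated the ages in the same direction under both diets, where 1.18% of all genes were higher and 1.70% lower.

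**Figure D3:**
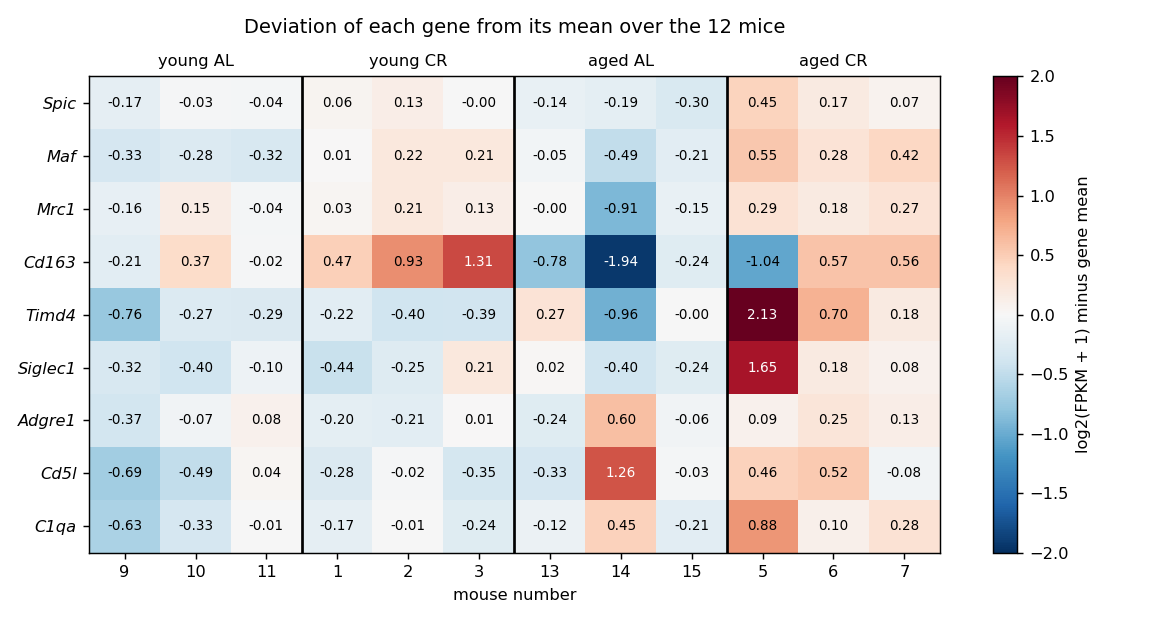
Deviation of each gene (rows) from its mean over the 12 mice on the log2(FPKM + 1) scale, in each mouse (columns, by group), red above and blue below the mean. The Maf and Spic rows are red in aged CR and blue in both AL groups, and the columns of mice 5 and 14 hold the strongest colours of both signs.

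How alike the members were from mouse to mouse depended on mice 5 and 14. Of 36 pairs, 27 had a Pearson's r above 0 over the 12 mice (median 0.42), and 21 had one above 0 for deviations from the group means (median 0.18). Over the 10 mice without 5 and 14, r was above 0 in 35 of the 36 pairs (median 0.54), from -0.12 for Timd4 and Cd163 to 0.84 for Mrc1 and Spic. The mice share a tissue and a normalization, so these are descriptions. Timd4 and Siglec1 were the most alike, with r = 0.90 and Spearman's rho = 0.59 over 12 mice, but r was 0.56 over the 10 mice without 5 and 14. Adgre1 and Cd5l followed, with r = 0.89 and rho = 0.74, and 0.75 over the 10 mice. Mrc1 and Maf had r = 0.76 and rho = 0.91, and 0.79 over the 10 mice. At the other end, Cd163 and Cd5l had r = -0.57 and Mrc1 and Cd5l r = -0.51 over the 12 mice, but 0.20 and 0.34 over the 10.

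**Figure D4:**
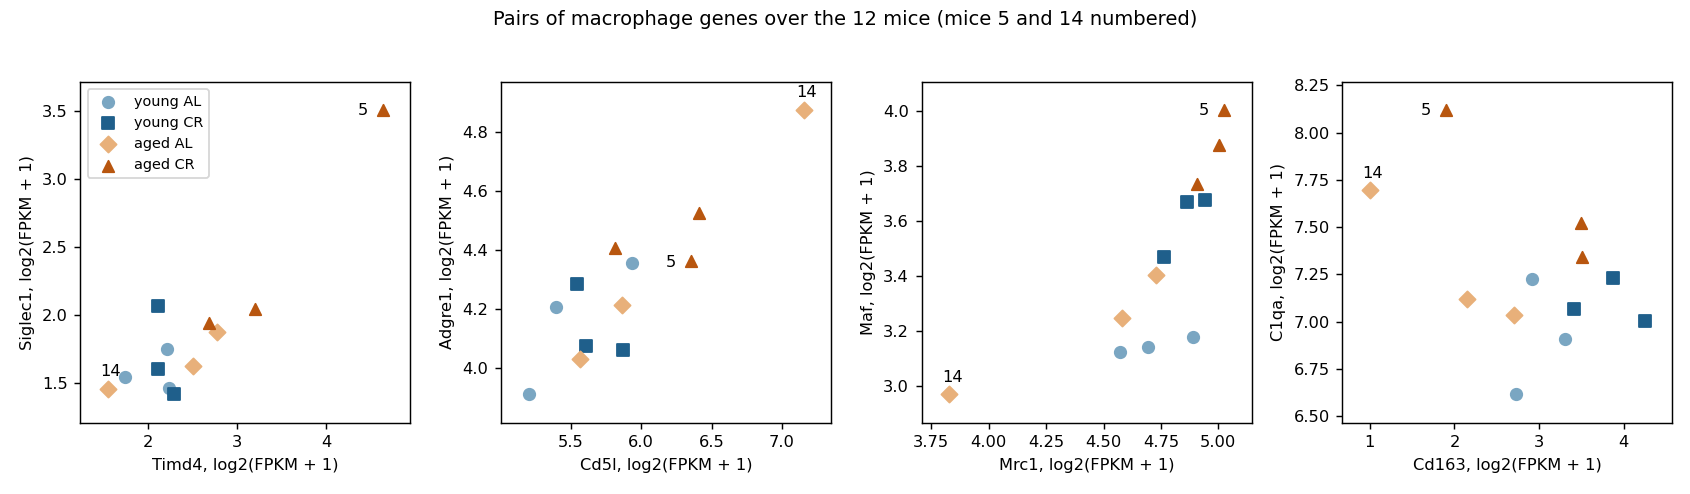
Log2(FPKM + 1) of 4 pairs of members against each other, 1 point per mouse, with mice 5 and 14 numbered. Mouse 5 alone stretches the plot of Timd4 and Siglec1, mouse 14 that of Cd5l and Adgre1, and in the plot of Cd163 and C1qa both lie at the upper left.

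Among the genes tested that were no member, the 10 most like the mean deviation of the 9 over the 12 mice were Sepp1, Lgmn, Ralgds, Cd68, Cfp, Fcna, Ptk2, Sulf2, Pydc3 and Rxra, with r from 0.91 for Sepp1 to 0.87 for Rxra. Of these, Lgmn and Cd68 encode lysosomal proteins of macrophages, Fcna encodes ficolin A and Cfp properdin, both of the complement system, and Fcna had the highest r over the 10 mice without 5 and 14, at 0.94. Members also had their own nearest genes, and the iron exporter Slc40a1 was among the 3 most like Mrc1 (r = 0.95). Pla2g2d, a secreted phospholipase, was nearest to Timd4 (r = 0.95), Vat1 to Maf (r = 0.95), Nr1h3, which encodes liver X receptor alpha, to Cd5l (r = 0.97), and C1qc, the C chain of the same protein, to C1qa (r = 0.94). For Cd163 the nearest was Parva (r = 0.95), for Adgre1 the lipopolysaccharide receptor gene Cd14 (r = 0.93), for Spic Ece2 (r = 0.88) and for Siglec1 the lectin Cd209b (r = 0.93). The last fell to 0.59 over the 10 mice.

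Other genes of the same functions gave few calls. Of 14 regulators and growth factor signals beside Maf and Spic, 1 rose with CR over both ages (0.191% of all genes tested) and none fell (median 0.14). It was Rxra, the partner of nuclear receptors, at 4.75, 4.47 and 4.72 FPKM in young AL, 5.95, 6.12 and 6.33 in young CR, 5.01, 4.85 and 5.09 in aged AL and 8.17, 5.94 and 7.16 FPKM in aged CR mice. The diets did not overlap at either age, with CR higher (1.53% of all genes), and the difference was 0.38 ± 0.07 (limma, adjusted p = 0.0499). That is at the edge of the threshold of 0.05. The call, like those of the other lists below, was not followed through the alternatives. Irf8, a factor of monocytes and dendritic cells, differed by -0.24 ± 0.06 (limma, adjusted p = 0.0970).

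Of 12 tested genes of haem and iron handling, none was called for diet (0.258% of all genes), 11 lay above 0 (50.8% of all genes) and the median was 0.16. Hmox1, the haem oxygenase, differed by 0.66 ± 0.16 (limma, adjusted p = 0.0977) and was at 179, 174 and 179 FPKM in young AL and 206, 244 and 300.3 FPKM in young CR mice. It was at 216, 106 and 156 FPKM in aged AL and 227, 300.3 and 313 FPKM in aged CR mice. The diets thus did not overlap at either age, with CR higher (1.53% of all genes). Haptoglobin (Hp) and the ferritin light chain gene Ftl1 differed by 0.26 ± 0.07 and 0.23 ± 0.07 (limma, adjusted p = 0.117 and 0.170). Hpx and Hamp were below the minimum.

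Of 15 scavenger receptors and lectins beside Cd163 and Mrc1, none was called for diet (0.258% of all genes), with 13 above 0 (50.8% of all genes) and a median of 0.33. Fcna was at 74.8, 86.0 and 101 FPKM in young AL and 120.1, 119 and 135 FPKM in young CR mice, and at 98.1, 41.8 and 94.0 in aged AL and 234, 176 and 126 FPKM in aged CR mice. No CR mouse overlapped an AL mouse of its age, with CR higher (1.53% of all genes), and the difference was 0.88 ± 0.21 (limma, adjusted p = 0.0978). Cd68 differed by 0.36 ± 0.07 (limma, adjusted p = 0.0655). For age 1 gene of this list fell, Cd209a, by 0.60 ± 0.12 on the log2 scale (limma, adjusted p = 0.0488), where 0.758% of all genes were called in either direction.

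The complement list of 9 genes gave 10 entries, since Itgam is listed under 2 identifiers. None was called for diet (list median 0.03), where 0.258% of all genes were. For age 0.758% of all genes were called in either direction, and 2 of the list rose (list median 0.41). They were Vsig4, the C3b receptor of resident macrophages, by 1.38 ± 0.24, and the C1 protease C1s1 by 0.60 ± 0.09 (limma, adjusted p = 0.0344 and 0.0179). Vsig4 was at 1.61, 1.59 and 3.11 FPKM in young AL, 1.87, 2.42 and 1.52 in young CR, 6.27, 3.86 and 5.69 in aged AL and 8.99, 4.54 and 15.2 FPKM in aged CR mice, with no aged mouse below a young one. Of all genes, 1.18% lay higher in the aged without overlap under both diets. C1qb and C1qc, the other chains of C1q, differed for age by 0.50 ± 0.23 and 0.44 ± 0.17 (limma, adjusted p = 0.298 and 0.231), beside 0.46 for C1qa.

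Of 14 genes for the uptake of dying cells none was called for diet or age, where 0.258% and 0.758% of all genes were. Their medians were 0.07 and 0.07, Itgb3 coming nearest for age at 0.70 ± 0.14. Nor was any called of 7 tested adhesion genes of the erythroblastic island (medians -0.03 and 0.04). Among these, Vcam1, the adhesion molecule of the island macrophage, differed for diet by 0.56 ± 0.22 (limma, adjusted p = 0.284). Of 17 genes that macrophages share with monocytes none was called for diet or age (medians 0.09 and 0.16). Apoe and Ctsb came nearest for diet, at 0.45 ± 0.10 and 0.23 ± 0.05 (limma, adjusted p = 0.0842 and 0.0904).

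Other cells and signals moved over the same mice. Of 9 adipocyte markers, 3 rose with CR over both ages, Adig, Retn and Cidec, and all 9 lay above 0 (median 1.07). Of all genes, 0.191% rose and 50.8% lay above 0. The summed adipocyte level ran from 300.01 to 342 FPKM in young AL, 571 to 787 in young CR, 287 to 555 in aged AL and 578 to 973 FPKM in aged CR mice. Of 12 glucocorticoid-induced genes 1, Sult1a1, rose with CR and 12 lay above 0 (median 0.36), beside 0.191% and 50.8% of all genes. The list is of interest because glucocorticoids also induce Cd163 and Mrc1. No gene was called for diet (0.258% of all genes) among 8 osteoclast markers (8 above 0, median 0.41), 10 B cell markers (10 below 0, median -0.50), 12 monocyte markers (8 below 0, median -0.13), 8 dendritic cell markers (7 below 0, median -0.14), 12 neutrophil markers (median 0.05), 12 erythroblast markers (median 0.05), 9 skeletal muscle genes (median -0.12) or 11 liver X receptor targets (median 0.04). For age, the adipocyte marker Plin4, named after its value was seen, and the endothelial gene Pecam1 rose, by 0.58 and 0.34 (limma, adjusted p = 0.0429 and 0.0487), and no gene of the others was called. Of all genes, 0.758% were called for age. The 9 skeletal muscle genes all lay above 0 for age (44.4% of all genes), with a median of 0.79. Their summed level was highest in aged AL mouse 14, at 1080 FPKM. The part of these lists in the values of the 9 genes was not tested.

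**Figure D5:**
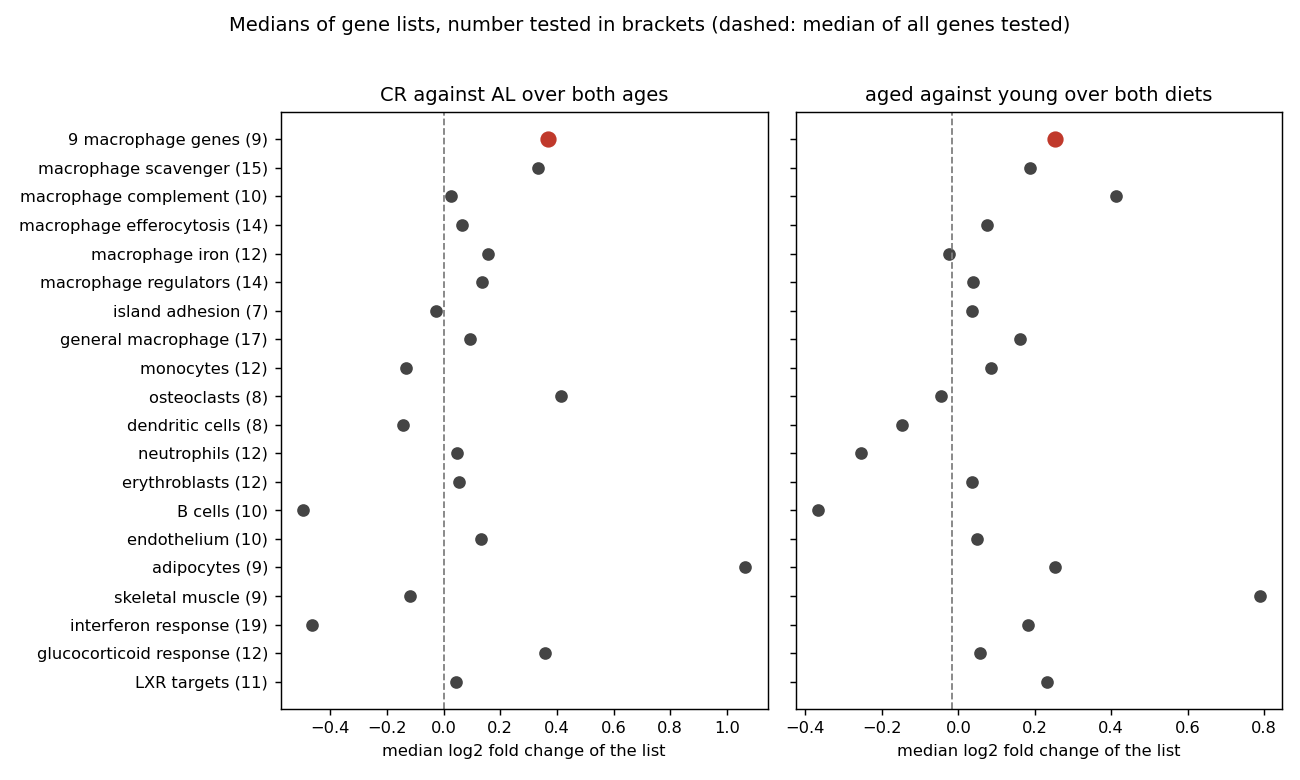
Median log2 fold change of each gene list for CR against AL (left) and aged against young mice (right), with the number of genes tested in brackets and the median of all genes tested as a dashed line. The 9 macrophage genes (red) lie at 0.37 and 0.25, with adipocyte markers farthest right for diet at 1.07.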

How the data were processed

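RNA of whole tibia was sequenced in 12 mice. The labels list 48 samples, 4 technical repeats per mouse, and the table holds 1 column per mouse, taken here as 1 value. How repeats were merged is not stated. By the study's methods, the authors prepared stranded mRNA libraries and used FastQC 0.11.8, MultiQC 1.6, Trim Galore 0.5.0 and STAR 2.6.1 on mm10, then StringTie 2.1.3b for FPKM per gene, which they quantile normalized in R 4.1.1. The deposited FPKM are on a linear scale, and values of the same rank differ between mice by at most 0.00936 FPKM. No counts entered, so depth is unknown and precision rests on the spread between mice.

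Values were taken as log2(FPKM + 1), a scale that understates changes of low genes. The 13590 of 29801 genes that averaged 1 FPKM or more were fitted with 4 group means in limma 3.58.1 (R 4.3.3, mean-dependent prior variance), with Benjamini-Hochberg adjustment over all of them and a threshold of 0.05. The fit was checked on simulated data with known changes. An exact permutation test of 3 against 3 mice cannot go below p = 0.1, so pairs of groups rest on limma. Identifiers were joined to GENCODE M21, where 99.2% were found. Motifs were searched in Python 3.11.15.

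The 9 genes and the other lists were chosen with earlier results of these data known. Named were all 9, up to 4 genes of each other list by smallest unadjusted p for diet or age (not all are printed), the 10 most like the mean of the 9 and, of the 3 most like each, 1, the nearest where it is reported here. C1qb, C1qc and the genes that set mice 5 and 14 apart were named after their values were seen. Alternatives were a pseudocount of 0.1 FPKM, no filter, size-factor scaling, a quality weight per mouse, fits restricted to 2 groups, an unequal-variance test of FPKM, each mouse left out, and, chosen after seeing the data, both mice 5 and 14 left out.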

Additional observations from a re-analysis of the deposited data

How the results depend on the processing

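No paired analysis was possible because mouse numbers are not shared between groups and the 4 technical repeats are merged in 1 column per mouse. Members called for diet over both ages numbered 1, with 0.258% of all genes called, but 0 with no filter (0.0315% of all genes), 3 with a quality weight per mouse (Maf, Spic and Cd163; 6.79%), 2 without mice 5 and 14 (Maf and Cd163; 3.25%), and 0 to 1 with 1 mouse left out (0.0589% to 1.64%). With the weights 1 member was called in aged mice (1.42% of all genes) and 1 for age (13.2%), Maf in both, and without mice 5 and 14, 1 in young mice (Maf; 1.18%) and 1 for age (Timd4; 1.61%), where none was called with all mice at equal weight. With fewer mice the spread is estimated anew, and the cause was not tested. The median of the members in aged mice, 0.60, was 0.38 with weights, 0.35 without mice 5 and 14, and 0.34 to 0.76 with 1 mouse left out, and their median difference between ages ran from 0.18 to 0.35. Of 39 differences of single members, 29 kept their sign in every alternative, and those that turned were smaller than their SE. For the difference between ages, only Timd4, Spic and Cd5l were counted here, and the other members were not followed. With weights Siglec1 in young mice was -0.0474, Mrc1 for age 0.036, Spic for age -0.00746 and Cd5l between ages 0.22. Cd5l in aged mice was -0.15 by the unequal-variance test on FPKM. Without mice 5 and 14, Mrc1 for age was 0.019, Spic for age -0.040 and Cd5l between ages 0.24. With 1 mouse left out, the young difference ran from -0.052 to 0.19 for Timd4, -0.14 to 0.082 for Adgre1 and -0.073 to 0.25 for Siglec1, the aged from -0.11 to 0.31 for Adgre1 and -0.31 to 0.48 for Cd5l, diet over both ages from -0.065 to 0.15 for Adgre1 and -0.075 to 0.32 for Cd5l, age from -0.19 to 0.031 for Mrc1 and -0.034 to 0.060 for Spic, and the difference between ages from -0.48 to 0.32 for Cd5l. Over the whole table, 8 to 223 genes were called for diet with 1 mouse left out, beside 35 in all mice. Depth could not be weighed, since no counts were used.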
